A study of Equus caballus with 25 samples.

Results

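Bronchoalveolar lavage (BAL) cells of horses with mild equine asthma (MEA) were compared with those of healthy control horses (CTRL). The comparison took the arrays whose labels give the diagnosis IAD (10 horses, MEA) or Control (7 horses, CTRL), that is 17 of the 25 arrays of the series. The other 8 arrays came from horses with severe equine asthma (SEA, labelled RAO) and are used only where MEA is set against them. Each array held total RNA of the lavage cells of 1 horse, so that 1 array is 1 animal and the spread given below is between animals.

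CTRL horses were clinically healthy standardbreds without changes at endoscopy, enrolled by their owners. MEA horses were sampled at presentation with poor performance, abnormal lung sounds and mucus in the airways, and most of them were saddle horses. Neutrophilic inflammation in the lavage was required for entry into the MEA group, and horses with mast cell or eosinophilic inflammation were left out. The stated mean age was equal in both groups. All horses were sedated for endoscopy, and the lavage fluid of both groups was saline with lidocaine. Breed was not given for each horse, so that diagnosis, breed and neutrophil entry cannot be told apart. By cytology macrophages prevailed in both groups, but the mean percentages of neutrophils and of lymphocytes were higher in MEA than in CTRL.

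The lavage samples the lining of the lower airway. Most of its cells are alveolar macrophages, which take up particles, present antigen and release chemokines, and a few are epithelial cells shed from the airway wall. Ciliated epithelial cells carry motile cilia that move mucus upwards, and these are built from a microtubule axoneme with dynein arms and radial spokes, on a base reached by intraflagellar transport (IFT). In the airway, messenger RNA for axoneme parts is made mainly by ciliated cells. Macrophage receptors, costimulatory molecules and prostaglandin synthase can respond to the state of the macrophage, but RNA of whole lavage pellets does not show which cells made them.

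The array carries 60-base probes for equine transcripts, each printed as 2 spots. A named gene therefore stands for what its probe reads. The following probes, 5′ to 3′, belong to transcripts on which the results turn: 2 large falls (CHST4 and TCTE3), a radial spoke gene covered by several transcripts (RSPH9), a fall without overlap between the groups (BBS9), a large rise (CD80), and the pair of SIGLEC1 probes. Capitals mark the 59 bases that the SIGLEC1 probes share.
CHST4: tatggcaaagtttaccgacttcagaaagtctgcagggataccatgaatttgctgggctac
TCTE3: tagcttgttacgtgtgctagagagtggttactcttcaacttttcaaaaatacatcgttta
RSPH9: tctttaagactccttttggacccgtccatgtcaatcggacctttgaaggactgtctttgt
BBS9: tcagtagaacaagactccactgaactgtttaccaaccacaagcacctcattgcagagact
CD80: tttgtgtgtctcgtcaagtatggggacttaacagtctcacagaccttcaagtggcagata
SIGLEC1, first probe: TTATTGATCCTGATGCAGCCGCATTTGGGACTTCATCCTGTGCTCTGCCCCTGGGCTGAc
SIGLEC1, second probe: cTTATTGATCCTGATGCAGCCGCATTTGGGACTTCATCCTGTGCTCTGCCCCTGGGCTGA
The 3 RSPH9 transcripts carry 1 and the same probe sequence. Of the 258 pairs of tested probes that share a gene symbol, 166 had an identical sequence. A further 9 matched over their whole overlap, of at least 12 bases, when shifted against each other. Shared stretches inside probes that otherwise differ, as for KRT18, were not counted. Counts of transcripts below therefore exceed counts of independent probes. The 160 transcripts that rose were read by 147 distinct sequences, and the 322 that fell by 307. Within pairs of identical sequence the log2 fold changes differed by a median of 0.11 and by at most 0.56, which is a measure of the error of a probe printed again on the same array.

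Levels are log2 intensities after normalization between arrays. A transcript was called where its limma adjusted p was below 0.1 and its fold change at least 1.5. Between 63.5 and 90.4% of spots were well above background on the CTRL arrays and between 58.2 and 84.1% on the MEA arrays, with medians of 77.7 and 74.0%. Arrays lay on 4 slides, which held 2 CTRL and 2 MEA, 2 and 2, 2 and 1, and 1 and 5 arrays. CTRL 1 had the highest mean level of ciliary genes among the CTRL horses and MEA 7 among the MEA horses, and MEA 3 had the highest mean level of neutrophil markers.

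Of 4930 transcripts tested, 9.78% were called, 3.25% as higher and 6.53% as lower in MEA. The median fall, a log2 fold change of -1.16, was larger than the median rise of 0.86. Gene symbols were at hand for 1684 of the tested transcripts, because they were taken from the study's own lists of changed transcripts. Among these, 7.07% rose and 18.1% fell, against 1.26% and 0.524% of the 3246 transcripts without a symbol, so that the share of a gene list has to be read against the former pair. The lists themselves are not independent evidence of direction, since they draw on the same symbols. A transcript that the study did not list as changed has no symbol here and is missing from its gene list. Of 28 IFT symbols 17 could be matched to a probe, and of 24 symbols for dynein arms and their assembly 12. Over the transcripts with a symbol the median log2 fold change was -0.09.

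Genes of the motile cilium that could be matched were lower in MEA at the median of every ciliary list. In the 7 ciliary lists 52 of 85 tested transcripts fell, and 36 of 75 further transcripts fell in the lists of epithelial junctions, secretory defence and epithelial transcription factors. Together these were 88 of the 305 falls with a symbol. Without CTRL 1 the counts were 23 and 13, without CTRL 4 they were 27 and 9, without CTRL 6 they were 28 and 13, and with the slide as a block 26 and 17. Only 2 transcripts of all these lists rose, RFX1 and BPIFB2. Because whole lavage pellets were measured, fewer cells of a type and less RNA per cell cannot be told apart.

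**Figure D1:**
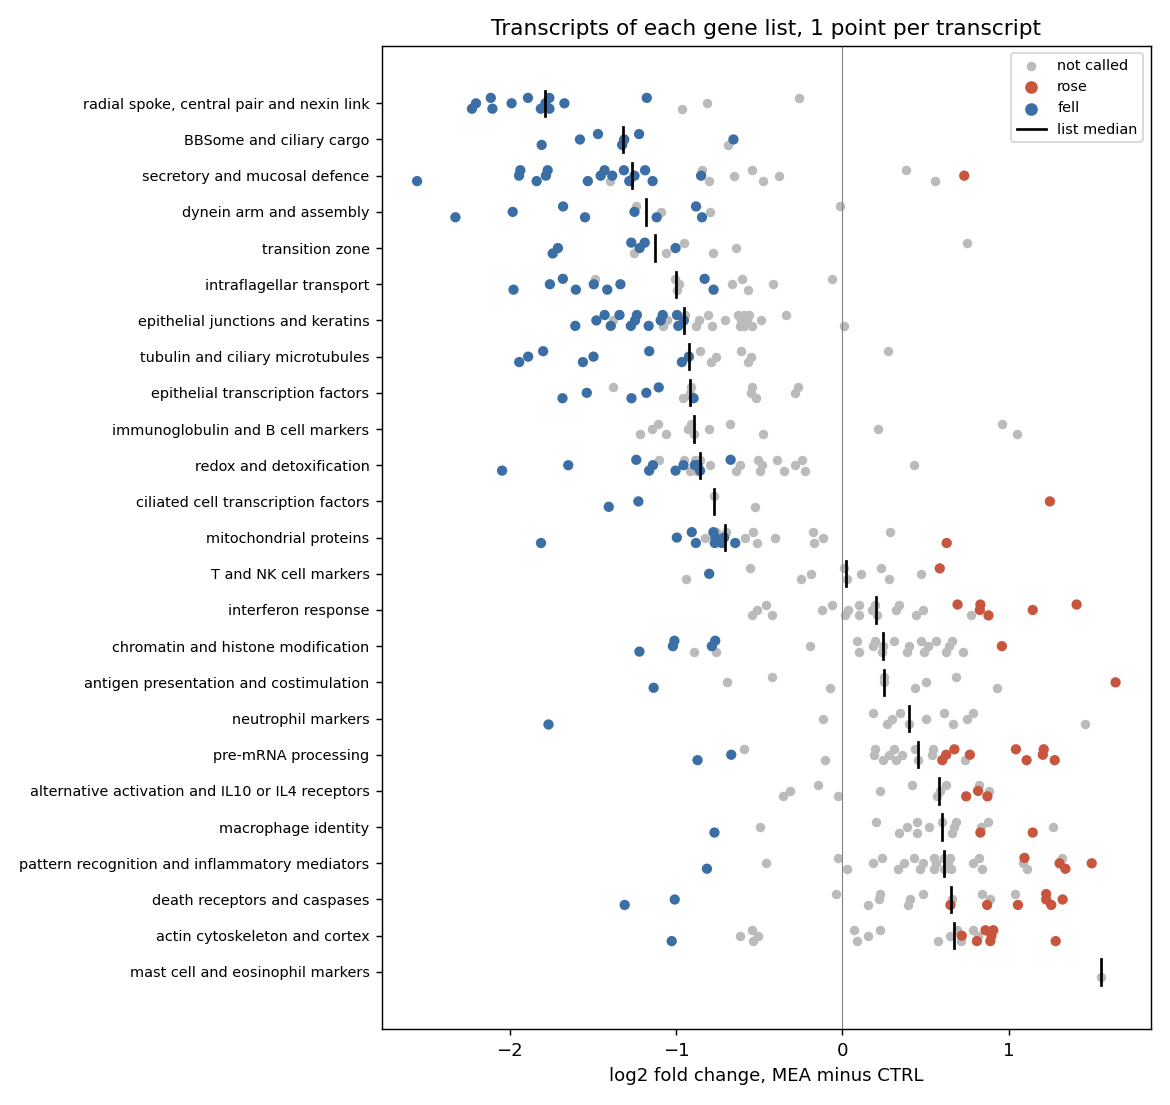
Log2 fold change (MEA minus CTRL, horizontal axis) of each tested transcript, 1 point each, in 25 gene lists ordered by their median (black bar). Blue points fell and red points rose at an adjusted p below 0.1 and a fold of at least 1.5, and grey points were not called. The radial spoke list has the lowest median (-1.79), and 12 of its 15 transcripts fell.

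The radial spoke, central pair and nexin link list had the lowest median of the 25 lists. In it 12 of 15 transcripts (9 of 12 genes) fell, with a median log2 fold change of -1.79. RSPH9, a protein of the spoke head, ranged from 9.53 to 11.37 with a median of 10.27 in CTRL, and from 5.97 to 10.43 with a median of 8.05 in MEA for the transcript with the largest fall. In 9 of 10 MEA horses it lay below every CTRL horse. Its log2 fold change was -2.23 (SE 0.48, limma adjusted p = 0.021), a 4.68-fold difference, and the 3 repeats of the probe gave -2.23, -2.11 and -1.99. DNAJB13, another spoke protein, ran from 8.09 to 9.78 in CTRL (median 8.68) and from 3.34 to 9.04 in MEA (median 6.95). It fell by 2.20 on the log2 scale (SE 0.54, limma adjusted p = 0.0296), and 1 MEA array did not read it well above background. ROPN1B, which binds the anchoring protein of the spoke, fell by 2.10 (SE 0.53, limma adjusted p = 0.0324). RSPH6A, a spoke paralog known from sperm, had a log2 fold change of -0.26 without a call. Without CTRL 1, CTRL 4 or CTRL 6 the list had 7 falls each time.

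In the list of dynein arms, the motors of the axoneme, and their assembly 8 of 12 transcripts fell, with a median of -1.18. TCTE3, a dynein light chain, had levels of 7.08 to 8.83 in CTRL (median 7.75) and of 3.85 to 7.17 in MEA (median 5.74). The groups overlapped in 1 MEA horse only, and the log2 fold change was -2.33 (SE 0.39, limma adjusted p = 0.00946). ARMC4, needed to dock outer dynein arms, fell by 1.98 (SE 0.46, limma adjusted p = 0.0251). WDR92, a factor of dynein preassembly, was lower in every MEA horse than in any CTRL horse. It ran from 6.09 to 7.45 in CTRL (median 6.67) and from 2.32 to 6.05 in MEA (median 5.35). Its log2 fold change was -1.55 (SE 0.42, limma adjusted p = 0.0418), but the adjusted p was 0.109 without CTRL 6, and the call was lost without CTRL 1 too. RUVBL1, a helicase of the same assembly machinery that cells without cilia also use, had no overlap either and fell by 1.12. DYNLL2, a dynein light chain with many cargoes, had a log2 fold change of -0.02, while its paralog DYNLL1 fell by 1.25. The list had 4 falls without CTRL 1 and 4 without CTRL 6.

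The base and transport systems of the cilium fell too. Of the BBSome, the coat that carries membrane proteins into the cilium, and its cargo adaptors, 7 of 8 transcripts fell (median -1.32). BBS9 lay between 7.39 and 8.74 in CTRL (median 7.44) and between 4.54 and 7.18 in MEA (median 6.33), with no overlap between the groups. It fell by 1.81 (SE 0.35, limma adjusted p = 0.018), or 3.5-fold. BBS2 of the same complex fell by 1.32 (SE 0.26, limma adjusted p = 0.018), with 9 of 10 MEA horses below every CTRL horse. Over all 4930 tested transcripts 16 (0.325%) showed no overlap between the horses of the groups, 0.223% with MEA lower. All 16 were among the 1684 transcripts with a symbol, so that the share among these is higher.

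In the IFT list 9 of 18 transcripts fell, 18 of 18 had a negative log2 fold change, and the median was -1.003. IFT57, of the particle that moves outward along the cilium, was the most lowered, by 1.98 (SE 0.40, limma adjusted p = 0.021), from a CTRL range of 11.51 to 13.69 to an MEA range of 9.05 to 12.31. IFT74, of the same particle, fell by 1.76 (SE 0.40, limma adjusted p = 0.0235). At the other end stood TRAF3IP1, an adaptor of the same particle, with -0.06. In the transition zone, the gate at the base of the cilium, 6 of 12 transcripts (4 of 8 genes) fell, with TCTN1 at -1.74 and -1.71 by 2 repeats of 1 probe. RPGRIP1, known mainly from photoreceptors, was the only member with a higher level, 0.75 on the log2 scale, and was not called. Without CTRL 1 there were 3 falls in the IFT list, 4 in the BBSome list and 1 in the transition zone list, and without MEA 7 there were 15, 7 and 9.

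Microtubule genes were lower as well. TUBA1A, an alpha tubulin abundant in ciliated and neural cells, had a level of 14.03 to 15.61 in CTRL (median 14.80) and of 10.38 to 14.73 in MEA (median 13.14). Its log2 fold change was -1.89 (SE 0.46, limma adjusted p = 0.0265). TEKT2, a tektin that stabilizes the doublet microtubules, fell by 1.94 (SE 0.45, limma adjusted p = 0.0235). TUBB6, a beta tubulin of many cell types, was at 0.28 without a call, and 8 of 15 transcripts of the list fell (median -0.92), 4 without CTRL 1 or CTRL 4 and 12 without MEA 7.

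Transcription factors of ciliated cells did not all move one way. FOXJ1, the master regulator of motile ciliogenesis, ranged from 9.02 to 10.97 in CTRL (median 9.59) and from 7.26 to 10.39 in MEA (median 8.32). It fell by 1.23 (SE 0.38, limma adjusted p = 0.0696). TP73, which acts upstream of FOXJ1 in multiciliated cells, fell by 1.40 (SE 0.45, limma adjusted p = 0.0806). RFX1, a factor of the same family as the ciliary regulators RFX2 and RFX3 but expressed widely, rose instead. It lay between 3.901 and 5.88 in CTRL (median 4.98) and between 5.73 and 6.83 in MEA (median 6.08), a log2 fold change of 1.25 (SE 0.27, limma adjusted p = 0.021), whereas RFX2 was at -0.53 without a call. The calls of FOXJ1 and TP73 each depended on several horses, with adjusted p of 0.179 and 0.193 without CTRL 1, whereas RFX1 kept its call whichever horse was left out.

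**Figure D2:**
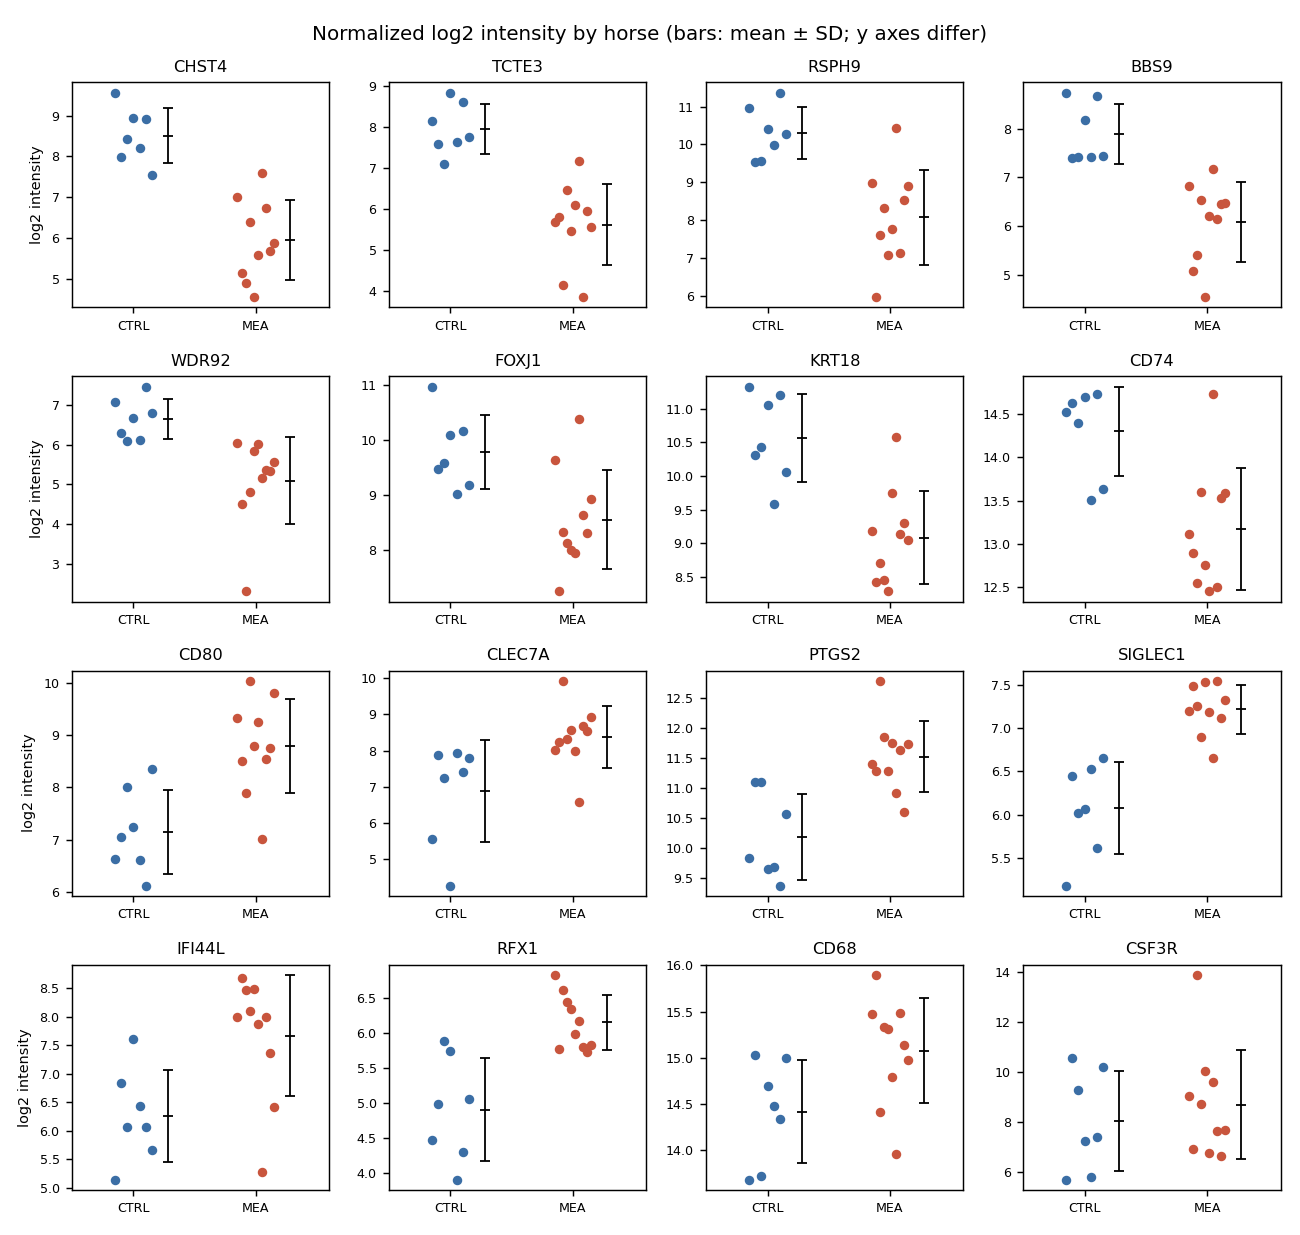
Normalized log2 intensity (vertical axes, each with its own range) of 16 transcripts in the 7 CTRL (blue) and 10 MEA (red) horses, 1 point per horse, with the mean ± SD as a bar. BBS9, WDR92 and SIGLEC1 show no overlap between the groups, 1 MEA horse lies within the CTRL range for RSPH9, and 2 do for FOXJ1.

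Genes shared by all airway epithelium were lower as well, by less than the spokes. Of the junction and keratin list 14 of 34 transcripts (13 of 29 genes) fell, 33 of 34 were below 0 and the median was -0.95. KRT18, a keratin of simple epithelia, was read by 2 probes that differ but share an inner stretch of bases, so that they are not independent. These gave -1.48 (SE 0.32, limma adjusted p = 0.021) and -1.39 (SE 0.34, limma adjusted p = 0.0296). With the first probe CTRL horses lay between 9.58 and 11.33 and MEA horses between 8.29 and 10.58, and 8 of 10 MEA horses lay below every CTRL horse. SPINT1, an inhibitor of epithelial serine proteases, fell by 1.61 (SE 0.37, limma adjusted p = 0.0235). EPCAM, the epithelial adhesion molecule, overlapped more, from 10.31 to 13.07 in CTRL and from 8.51 to 11.99 in MEA, with an adjusted p of 0.0822 that became 0.199 without CTRL 1. CDH1, the cadherin of epithelial junctions, was at -0.95 and was not called, and DSC2, a desmosomal cadherin, was at 0.01. The list had 4 falls without CTRL 1, 3 without CTRL 4, 5 without CTRL 6 and 21 without MEA 7.

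Secretory and mucosal defence genes held the largest fall of all transcripts. CHST4, a sulfotransferase that modifies mucin glycans, lay between 7.55 and 9.56 in CTRL (median 8.42) and between 4.56 and 7.60 in MEA (median 5.79). Of the MEA horses 9 of 10 were below every CTRL horse, and the log2 fold change was -2.56 (SE 0.40, limma adjusted p = 0.00849), or 5.88-fold. In this list 16 of 26 transcripts (13 of 22 genes) fell and the median was -1.27. LTF, lactoferrin, an iron-binding protein of glandular secretions and of neutrophil granules, fell by 1.77 (SE 0.52, limma adjusted p = 0.0606), which was not kept without CTRL 4 (adjusted p = 0.134), CTRL 3 or CTRL 6. SERPINA1, the inhibitor of neutrophil elastase, had its largest fall at 1.94 (SE 0.51, limma adjusted p = 0.0399), where 7 of 7 CTRL but only 3 of 10 MEA arrays read the probe well above background. BPIFB2, a lipid-binding protein of the airway lining, rose by 0.73 (SE 0.24, limma adjusted p = 0.0815), and this call was lost on removal of any of 11 horses. The gel-forming mucin MUC5AC was at -1.40 (SE 1.16) without a call, with a limma adjusted p of 0.485. The list had 7 falls without CTRL 1, 4 without CTRL 4 and 5 without CTRL 6.

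Epithelial transcription factors fell in 6 of 15 transcripts with a median of -0.92. TOX3, a factor of airway epithelium, fell by 1.54 (SE 0.35, limma adjusted p = 0.0235), and FOXA2, which restrains mucous differentiation, by 1.27 (SE 0.37, limma adjusted p = 0.0616). Outside the lists, PROM1, a protein of membrane protrusions including cilia, fell by 2.30 (SE 0.42, limma adjusted p = 0.0135), from 10.96 to 13.67 in CTRL to 8.45 to 11.69 in MEA. METRN, a secreted factor first known from glia, fell by 2.08 (SE 0.51, limma adjusted p = 0.0277). Both kept their calls on removal of any horse, whereas the 6 falls among the epithelial transcription factors became 2 without CTRL 1 or CTRL 4, 3 without CTRL 6 and 9 without MEA 7.

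Mean differences over a list, taken for each horse against the CTRL mean, show how evenly the loss was spread. Over 80 transcripts of the 6 ciliary structure lists, CTRL horses ranged from -0.61 to 0.77 on the log2 scale and MEA horses from -2.44 (MEA 2) to 0.32 (MEA 7), with 9 of 10 MEA horses below every CTRL horse. MEA 7 was also the highest MEA horse for junctions and keratins (0.22), for secretory genes (-0.33) and for epithelial transcription factors (0.18). The lowest MEA horse was MEA 2 for spokes, dynein arms and IFT and MEA 5 for junctions, secretory genes and epithelial transcription factors. For junctions and keratins 5 of 10 MEA horses were below every CTRL horse, for secretory genes 8 of 10. Leaving out MEA 7 raised the count of falls from 322 to 488, and leaving out CTRL 1, the CTRL horse with the highest ciliary mean, lowered it to 110.

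**Figure D3:**
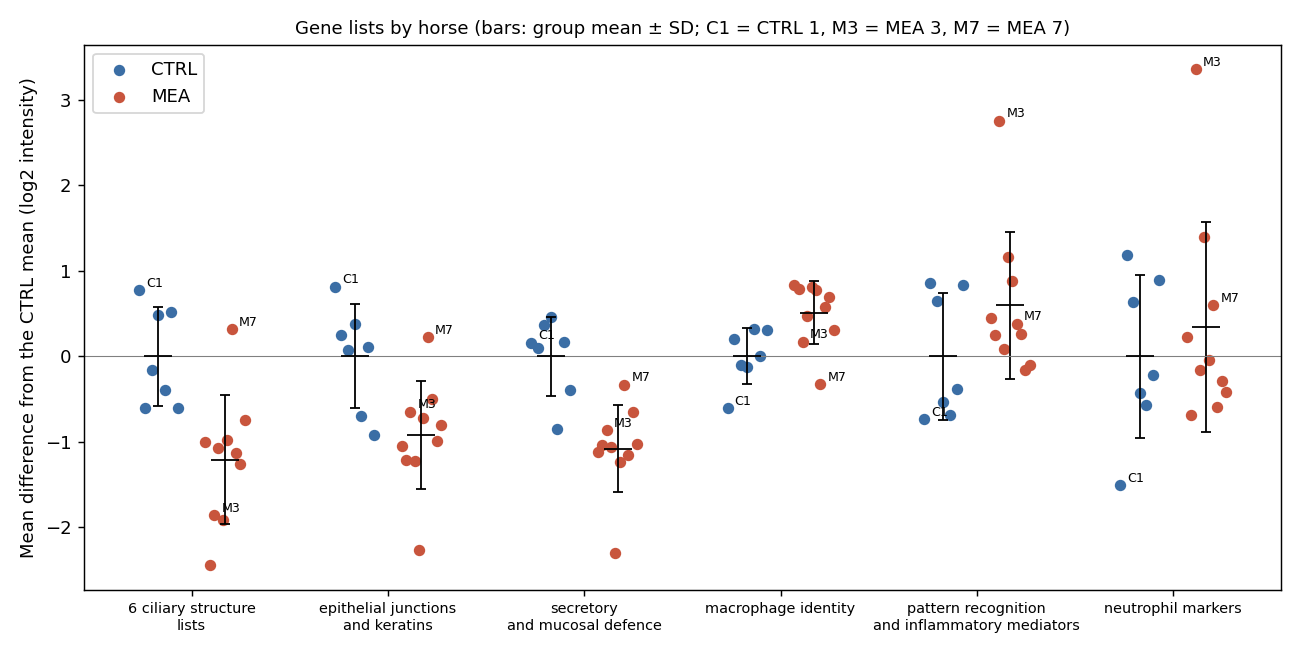
Mean difference from the CTRL mean (log2 intensity, vertical axis) over the transcripts of 6 groups of genes, 1 point per horse, CTRL in blue and MEA in red, with the group mean ± SD as a bar. MEA 7 (M7) lies at 0.32 for the ciliary genes, above the other 9 MEA horses, and MEA 3 (M3) at 3.35 for the neutrophil markers.

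The differences varied in size between slides. Within the slides that held 2 CTRL and 2 MEA arrays the ciliary mean differed by -1.80 and -1.53, within the slide of 2 and 1 arrays by -1.16, and within the slide of 1 CTRL and 5 MEA arrays by -0.33. Junction and keratin genes were 0.38 higher in MEA on that last slide, where the only control was CTRL 7, and -1.66, -1.58 and -0.82 on the others. Secretory genes were lower in MEA on all 4 slides, by -0.41 to -1.51. With the slide as a block 129 transcripts fell and 54 rose. RSPH9, TCTE3, BBS9, CHST4, PROM1 and both KRT18 probes stayed called there, with adjusted p between 0.0544 and 0.0644, while FOXJ1 (0.117), WDR92 (0.147) and EPCAM (0.101) did not.

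**Figure D4:**
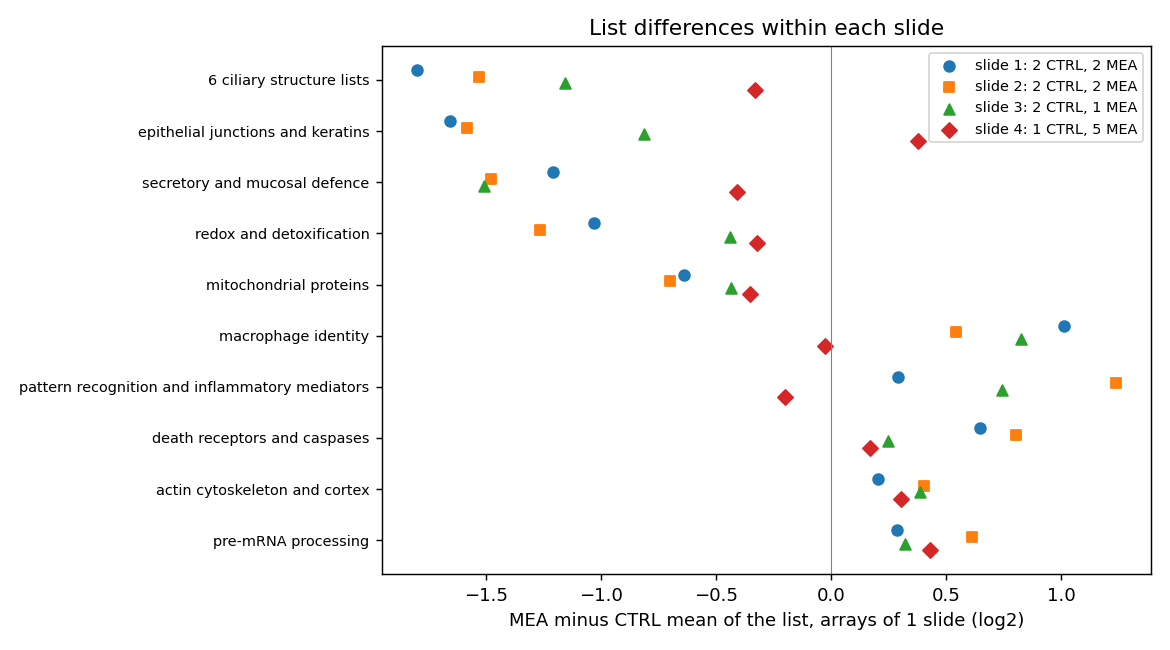
Difference of list means (MEA minus CTRL, log2, horizontal axis) within each of the 4 slides, 1 symbol per slide, for 10 groups of genes. Ciliary, secretory, redox and mitochondrial genes lie below 0 on every slide, actin, death receptor and pre-mRNA processing genes above 0, and junction genes reach 0.38 on the slide with 1 CTRL array. Macrophage identity and pattern recognition genes lie at -0.03 and -0.20 on that slide and above 0 on the others.

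The percentage of epithelial cells in the cytology count, read from the study's cytology table, was on average higher in MEA than in CTRL. With it as a covariate no transcript was called by limma, the lowest adjusted p being 0.182, while 610 had an unadjusted p below 0.05. For the 322 falls the median log2 fold change was -1.16 without and -1.11 with the covariate, all 322 kept their sign, and the median SE grew from 0.31 to 0.40. For the 160 rises the median went from 0.86 to 0.79. Some immune lists moved more. The median went from 0.61 to 0.18 for pattern recognition and inflammatory mediators, from 0.20 to -0.03 for the interferon response and from 0.40 to -0.31 for neutrophil markers. ADAR went from 0.88 to 0.48, the FAS transcripts went from 1.32 and 1.23 to 0.83 and 0.71, and CSF3R turned from 0.66 to -0.73.

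Few macrophage identity genes were called. CD68, a lysosomal glycoprotein of macrophages, and MARCO, a scavenger receptor of alveolar macrophages, were well above background on all 17 arrays. CD68 ran from 13.68 to 15.03 in CTRL (median 14.47) and from 13.96 to 15.90 in MEA (median 15.22), a log2 fold change of 0.66 (SE 0.27) with an adjusted p of 0.161. MARCO was at 0.20 (SE 0.36, limma adjusted p = 0.77) and turned to -0.07 without CTRL 1. VSIG4, a complement receptor of resident macrophages, was at -0.50 (SE 0.79, limma adjusted p = 0.739), with a spread of 4.86 to 9.26 among CTRL horses alone. Of the 17 tested transcripts of this list 15 were higher in MEA, with a median of 0.60, but 2 rose (11.8%) and 1 fell (5.88%). Over all transcripts with a symbol 7.07% rose and 18.1% fell. Averaged over the list, 7 of 10 MEA horses were above every CTRL horse and MEA 7 was the lowest. Within the slide of 1 CTRL and 5 MEA arrays the list mean differed by -0.03 (MEA minus CTRL), and within the others by 0.54 to 1.01.

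SIGLEC1, a sialic acid receptor of macrophages that is also induced by interferon, was the member that rose. With the second probe CTRL horses lay between 5.18 and 6.65 (median 6.06) and MEA horses between 6.65 and 7.54 (median 7.22), so that every MEA horse was above every CTRL horse, although the nearest pair was equal to 2 decimals. The log2 fold change was 1.14 (SE 0.21, limma adjusted p = 0.0135). The first probe, shifted by 1 base, gave 0.83 (SE 0.19, limma adjusted p = 0.0242) with overlap. CTSF, a lysosomal cysteine protease, was the member that fell, by 0.77 (SE 0.20, limma adjusted p = 0.037). Both SIGLEC1 probes and CTSF kept their calls on removal of any horse, but with the slide as a block CTSF lost its call (-0.71, limma adjusted p = 0.103) and the SIGLEC1 probes did not.

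In the list of antigen presentation and costimulation 1 of 11 transcripts rose and 1 fell (9.09% each). Over all transcripts with a symbol 7.07% rose and 18.1% fell. CD80, which costimulates T cells through CD28, ranged from 6.13 to 8.36 in CTRL (median 7.05) and from 7.01 to 10.03 in MEA (median 8.77), with 8 of 10 MEA horses above every CTRL horse. It rose by 1.64 on the log2 scale (SE 0.39, limma adjusted p = 0.0257), or 3.12-fold. CD74, the invariant chain that accompanies class II molecules, moved the other way, from a CTRL range of 13.50 to 14.74 to an MEA range of 12.45 to 14.73, and fell by 1.13 (SE 0.30, limma adjusted p = 0.0418). MEA 7 alone of the MEA horses was near the CTRL maximum for CD74, and its call was lost without CTRL 1 or CTRL 6 (adjusted p = 0.105 without CTRL 6). CIITA, the transactivator of class II genes, was at -0.69 without a call. No other of the 11 transcripts of the presentation list was called, and the median was 0.25.

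Among pattern recognition receptors and inflammatory mediators 4 of 29 transcripts rose (13.8%) and 1 fell (3.45%). All transcripts with a symbol gave 7.07% and 18.1%. Of the 29 transcripts 26 were higher in MEA, with a median of 0.61. PTGS2, the inducible prostaglandin synthase, lay between 9.38 and 11.10 in CTRL (median 9.83) and between 10.60 and 12.79 in MEA (median 11.52). It rose by 1.34 (SE 0.31, limma adjusted p = 0.0235), with 8 of 10 MEA horses above every CTRL horse. HAVCR1, a phosphatidylserine receptor, rose by 1.31 (SE 0.31, limma adjusted p = 0.0257). CLEC7A, the receptor for fungal beta-glucan, rose 2.83-fold (SE of the log2 fold change 0.50, limma adjusted p = 0.0857), and the call was lost on removal of any of 11 horses. CTRL 4 (4.28) and CTRL 1 (5.56) had the lowest levels of CLEC7A, and the other 5 CTRL horses lay between 7.24 and 7.94. Of the 3 CXCL2 transcripts, a neutrophil chemoattractant, 1 rose, by 1.095 (SE 0.30, limma adjusted p = 0.0476, and 0.119 without CTRL 6), and the others were at 1.09 and 0.82. IL1B was at 0.24 and 0.19 and TNFA at 0.49 without a call. NLRX1, a mitochondrial regulator that dampens such signals, fell by 0.81 (SE 0.22, limma adjusted p = 0.0434), a call lost without CTRL 1 or CTRL 4. The 4 rises of the list became 2 without CTRL 6 and 2 with the slide as a block. Within the slide of 1 CTRL and 5 MEA arrays the list mean differed by -0.20 (MEA minus CTRL), and within the others by 0.29 to 1.24.

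MEA 3 stood apart for these genes. Its mean over the pattern recognition list was 2.76 above the CTRL mean, where the next MEA horse reached 1.16, and its mean over the neutrophil list was 3.35. In the study's cytology table, however, its neutrophil percentage was below the MEA mean. Of 13 neutrophil marker transcripts 0 were called higher by limma (1 at an unadjusted p below 0.05, and 1 called by the exact Wilcoxon rank sum test), 1 was called lower (LTF, above) and the median was 0.40. CSF3R, the receptor for granulocyte colony stimulating factor, spanned 5.69 to 10.57 in CTRL and 6.63 to 13.87 in MEA and had a log2 fold change of 0.66 (SE 0.93, limma adjusted p = 0.7). Without MEA 3 the rises numbered 142 in place of 160. The part of neutrophil number in the rises was not tested.

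Interferon-responsive genes rose in 6 of 24 transcripts (5 of 20 genes, the SIGLEC1 probes included), with a median of 0.20. The share was 25%, against 7.07% of all transcripts with a symbol. Without CTRL 1 there were 3 rises and without CTRL 6 there were 4. IFI44L, an interferon-induced gene, had a CTRL range of 5.14 to 7.61 (median 6.07) and an MEA range of 5.28 to 8.69 (median 8.00). It rose by 1.41 (SE 0.44, limma adjusted p = 0.073), with 7 of 10 MEA horses above every CTRL horse, and lost its call without CTRL 1 (adjusted p = 0.182) and without 7 other horses. ADAR, an RNA-editing enzyme with an interferon-induced form, rose by 0.88 (SE 0.26, limma adjusted p = 0.0614) and lost its call without CTRL 1 (0.16) or CTRL 6. CXCL10, a classic target of interferon gamma, was at -0.46, and the 3 IFITM2 transcripts lay between -0.54 and 0.10.

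Genes tied to alternative activation and to interleukin 10 or 4 signalling rose in 3 of 14 transcripts (21.4%), with a median of 0.58. Rises made up 7.07% of all transcripts with a symbol. IL10RA, the ligand-binding chain of the interleukin 10 receptor, ran from 5.68 to 7.05 in CTRL (median 5.96) and from 6.15 to 7.54 in MEA (median 7.15). Its log2 fold change was 0.87 (SE 0.22, limma adjusted p = 0.0351), a call lost with the slide as a block (0.78, limma adjusted p = 0.123). The list then had 1 rise. KLF9, a glucocorticoid-responsive factor, rose by 0.82 (SE 0.20, limma adjusted p = 0.031) with 9 of 10 MEA horses above every CTRL horse, and only 4 of 7 CTRL arrays read it well above background. TGFBI, a matrix protein made by macrophages under transforming growth factor beta, rose by 0.74 (SE 0.24, limma adjusted p = 0.0757), a call that 8 horses could each undo, with 0.184 without CTRL 1. The chemokines CCL17 and CCL18 were at 0.88 and 0.82 without a call.

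Death receptor and caspase genes rose in 7 of 20 transcripts (5 of 16 genes) and fell in 2. These shares were 35% and 10%, against 7.07% and 18.1% of all transcripts with a symbol. TNFRSF10A, a receptor for the ligand TRAIL, was read by 2 unrelated probes, which gave 1.26 (SE 0.24, limma adjusted p = 0.018) and 1.23 (SE 0.28, limma adjusted p = 0.0242). FAS, another death receptor, gave 1.32 and 1.23 with 1 probe sequence printed for 2 transcripts, and both calls were lost without CTRL 1 (adjusted p = 0.123 and 0.200), the latter also without 9 other horses. BAD, a pro-death relative of BCL2, fell by 1.01 (SE 0.23, limma adjusted p = 0.0235), and CASP6, an executioner caspase, by 1.31 (SE 0.36, limma adjusted p = 0.0472, and 0.128 without CTRL 1). The 7 rises became 2 without CTRL 1, 4 without CTRL 4, 3 without CTRL 6 and 3 with the slide as a block.

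Actin and cortex genes rose in 7 of 22 transcripts (31.8%, 5 of 16 genes), against 7.07% of all transcripts with a symbol. MSN, which links actin to the membrane, rose by 1.28 (SE 0.29, limma adjusted p = 0.0235). Only 3 transcripts of the list rose once slides were blocked, and on removal of 1 horse between 5 and 10 did. MSN stayed called in the blocked fit, whereas VASP (limma adjusted p = 0.111) and ACTN1 (limma adjusted p = 0.101) did not. DSTN, which severs actin filaments, fell by 1.03 (SE 0.30, limma adjusted p = 0.062), and not without CTRL 1 (0.162), CTRL 4 or CTRL 6. Pre-mRNA processing genes rose in 9 of 25 transcripts (36%) and fell in 2 (8%), with a median of 0.46. PRPF4B, a kinase of the spliceosome, rose by 1.28 (SE 0.30, limma adjusted p = 0.0257), with a CTRL range of 4.70 to 7.01 and an MEA range of 6.96 to 7.77. Averaged over the list, 9 of 10 MEA horses were above every CTRL horse. LSM4, a subunit of the protein ring that binds the spliceosomal U6 RNA, fell by 0.87 (SE 0.19, limma adjusted p = 0.021). Without CTRL 6 the list had 5 rises, as it had with the slide as a block.

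Redox and mitochondrial lists also held lower transcripts. Of 29 redox and detoxification transcripts 11 fell (37.9%, 10 of 24 genes), 28 were below 0 and the median was -0.86. FMO5, a flavin monooxygenase, fell by 2.05 (SE 0.49, limma adjusted p = 0.0257), and 5 of 10 MEA arrays against 7 of 7 CTRL arrays read it well above background. PRDX2, a peroxiredoxin, fell by 1.24 (SE 0.42, limma adjusted p = 0.0922) and lost its call on removal of any of 14 horses, whereas HMOX1, heme oxygenase, was at -0.23. Of 22 mitochondrial transcripts 10 fell (45.5%) and 1 rose (4.55%), with a median of -0.71. All transcripts with a symbol gave 18.1% falls and 7.07% rises. TK2, the thymidine kinase of mitochondria, fell by 1.81 (SE 0.47, limma adjusted p = 0.0375), and 5 of 10 MEA arrays against 7 of 7 CTRL arrays read it well above background. Its call was lost with slide as a block (-1.45, limma adjusted p = 0.135) and with normexp background correction (-0.33, limma adjusted p = 0.117). CPT1A, which admits fatty acids for oxidation, rose by 0.63 (SE 0.19, limma adjusted p = 0.0709), a call lost without CTRL 4 (0.149) and without 7 other horses. The list means were lowest in MEA 5 (redox, -1.58) and MEA 3 (mitochondrial, -1.07), and highest in MEA 7 for both (0.14 and -0.17). Without CTRL 1 the redox list had 2 falls and the mitochondrial list 4, and with the slide as a block each had 3.

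Few lymphocyte genes were called. Of 12 T and NK cell transcripts SLA2, an adaptor of lymphocyte signalling, rose by 0.59 (SE 0.20, limma adjusted p = 0.0922) and KLRG1, an inhibitory receptor, fell by 0.80 (SE 0.28, limma adjusted p = 0.0935), and both calls were lost on removal of most horses. Rises and falls were thus 8.33% of the list each, against 7.07% and 18.1% of all transcripts with a symbol. Immunoglobulin and B cell transcripts had a median of -0.89 with 0 of 13 called by limma or by the exact Wilcoxon rank sum test (1 at an unadjusted limma p below 0.05), and the list mean of the CTRL horses spread from -1.94 to 1.94. Of the mast cell and eosinophil markers only PRG3, a granule protein of eosinophils, had a named probe. It was at 1.56 (SE 0.60, limma adjusted p = 0.13) and not called. Chromatin genes fell in 5 (19.2%) and rose in 1 (3.85%) of 26 transcripts. Over all transcripts with a symbol 18.1% fell and 7.07% rose, so that the share of falls was near that of all. There were 0 falls in the chromatin list without CTRL 1, and 1 with the slide as a block. The rise was DNMT3L, a cofactor of DNA methylation (0.96, SE 0.23, limma adjusted p = 0.0251).

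The remaining large rises were in genes outside the lists. XG, a surface antigen first known from red cells, was at 2.71 to 5.03 in CTRL (median 3.34) and at 4.38 to 7.04 in MEA (median 5.50), with a log2 fold change of 1.67 (SE 0.40, limma adjusted p = 0.0257). It was well above background on 5 of 7 CTRL and 10 of 10 MEA arrays. SLC1A2, a glutamate transporter, rose by 1.42 (SE 0.38, limma adjusted p = 0.0418, and 0.112 without CTRL 1). FLT1, a receptor for vascular endothelial growth factor, rose by 1.38 (SE 0.45, limma adjusted p = 0.0815), a call that 10 horses could each undo, with 0.182 without CTRL 1. The only transcript without a symbol among the 10 largest rises, ENSECAT00000025051, rose by 1.32 (SE 0.39, limma adjusted p = 0.0627, and 0.136 without CTRL 6).

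Values of the severe form were set beside these changes. By the study's cytology neutrophils prevailed in SEA lavage and macrophages in MEA lavage, and the SEA horses were older on average. Severity, cell mixture and age therefore cannot be told apart here. MEA and SEA were each set against the same 7 CTRL horses, so that the paired values are not independent. CHST4 was at -2.56 in MEA and -2.81 in SEA, RSPH9 at -2.23 and -2.62, and BBS9 at -1.81 and -1.96. For PTGS2 the values were 1.34 and 2.17, for CXCL2 1.095 and 2.06, and for CSF3R 0.66 and 2.53. For IFI44L they were 1.41 and 0.37, for the second SIGLEC1 probe 1.14 and 0.49, and for CD80 1.64 and 1.23. Between SEA and MEA directly 2.23% of 4930 transcripts were called (1.44% higher and 0.791% lower in SEA), and 1 of the 103 transcripts chosen by rule for description, KLRG1, which was 1.21 higher in SEA (SE 0.28, limma adjusted p = 0.0646). For SIGLEC1 the difference was -0.66 (SE 0.19, limma adjusted p = 0.111), for PTGS2 0.83 (SE 0.31, limma adjusted p = 0.152) and for CHST4 -0.25 (SE 0.68, limma adjusted p = 0.859), so that a difference between the forms of asthma was not shown for these 3 genes. In the interferon list 5 of 24 transcripts were called for SEA minus MEA and 14 had an unadjusted p below 0.05, with a median of -0.48. The share over transcripts with a symbol alone was not computed for this comparison, so that no excess can be read from these counts. The 5, named after their values were seen, were both IFI27L1 transcripts (-0.75 and -0.94), TREX1 (-0.92), CMPK2 (-1.13) and TRIM25 (-1.22), each lower in SEA (limma adjusted p between 0.0565 and 0.0946) and none of them called between MEA and CTRL. Among the lists the median of SEA minus MEA was lowest for epithelial transcription factors (-0.95) and highest for neutrophil markers (1.40), against -0.04 over all transcripts.

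**Figure D5:**
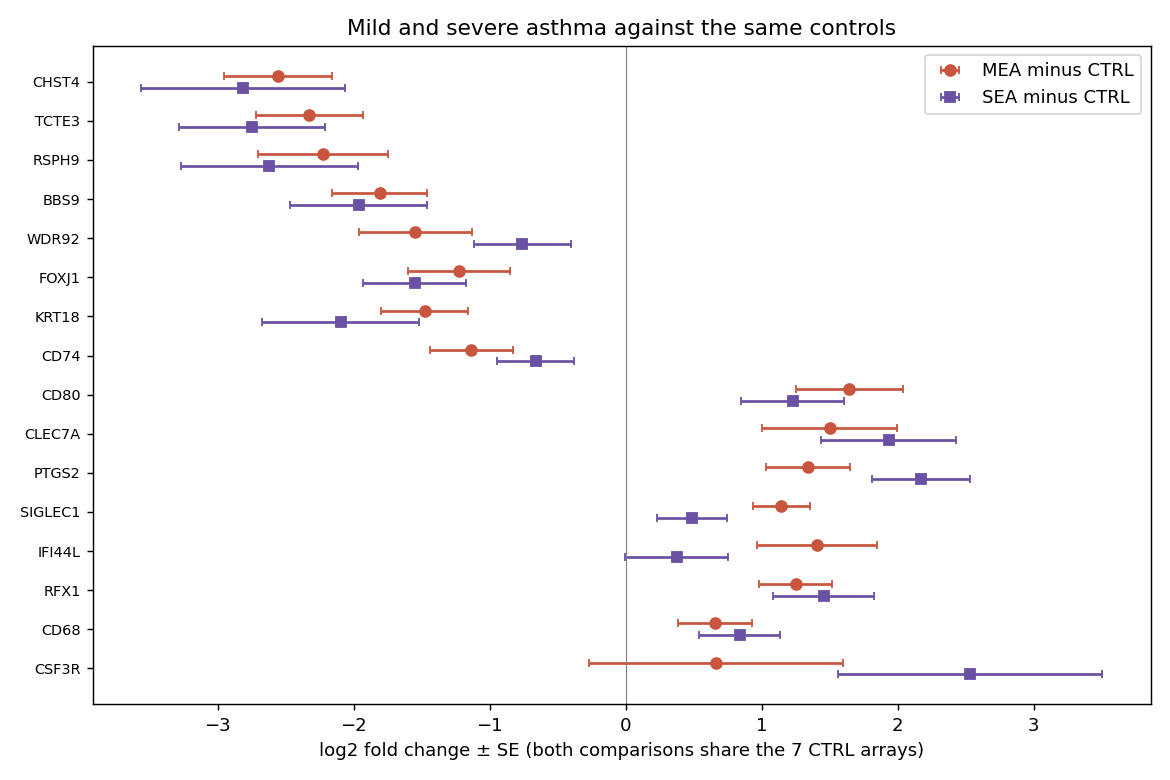
Log2 fold change ± SE (horizontal axis) of 16 transcripts in MEA (circles) and SEA (squares), each against the same 7 CTRL arrays. CHST4 lies at -2.56 and -2.81, CSF3R at 0.66 and 2.53, and IFI44L at 1.41 and 0.37.

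Not every call rested on the same number of horses. Of the 97 called transcripts among the 103 described by rule, 50 stayed called whichever of the 17 horses was left out, and 44 of these also with the slide as a block. The 44 included CHST4, TCTE3, PROM1, RSPH9, BBS9, KRT18 and SPINT1 among the falls, and XG, CD80, PTGS2, HAVCR1, SIGLEC1, RFX1 and TNFRSF10A among the rises. Leaving out CTRL 1 cost 45 of the 97 calls, CTRL 6 cost 40 and CTRL 4 cost 34. With normexp background correction 41 of the 97 stayed called. With the epithelial percentage as a covariate 0 did, and 0 with CTRL 1 left out and the slide as a block.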

How the data were processed

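Agilent Feature Extraction 9.5.1.1 gave the deposited processed signal intensity of each spot after background subtraction (1 color, Cy3, 25 arrays). The authors also deposited intensities normalized by cyclic loess with R 2.11.1, used here as an alternative. The genome build behind the probes was not given in the sources used here.

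Here log2 processed signals were normalized over 25 arrays by cyclic loess (span 0.7, 3 iterations). Control spots and spots flagged as outliers were left out and the 2 spots of a probe averaged. A transcript was dropped where 19 or more of the 25 arrays read it under 4.5, and 4930 of 7238 were kept. MEA and CTRL were compared with limma 3.58.1 (lmFit, eBayes, R 4.3.3, package data.table at 1.17.8). P-values were adjusted by Benjamini and Hochberg, and calls needed an adjusted p under 0.1 with a 1.5-fold or larger difference. These thresholds follow the study's methods, but limma was used in place of its SAM test. The fit was tested on simulated data. SEA minus MEA was fitted on 8 and 10 arrays. Samples were grouped by the diagnosis label, and the number of arrays limits the precision.

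The arrays hold no gene names. Symbols for 1865 of 7238 transcripts came from the study's lists of changed transcripts, and lists were matched on them. Epithelial percentage and sex came from its cytology results. Named transcripts were the 10 largest rises and falls, at most 4 rises and 4 falls per list (all called members where 5 or fewer), and 10 preset markers, of which STAB1 was not tested. A few of these transcripts are not reported here. Members and lists were chosen with earlier results of these data known, and uncalled list members were chosen for mention after their values were seen. Alternatives covered normalization, background, filter, test, thresholds, covariates, slide, scan session, replicate number and each horse. A promoter motif search was not run, since no promoter sequences were used here.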

Additional observations from a re-analysis of the deposited data

Results flagged for a closer look

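In each group of horses the highest and the lowest value were tested for standing apart from the others by Dixon's ratio, which chance exceeds in about 1 in 20 groups. Of 200 groups of named transcripts 10 did so (5%), and of 52 groups of list means 8 did (15.4%). The list means are not independent of each other, since 7 of the 8 came from 1 horse, MEA 3.

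MEA 3 stood apart with high list means for neutrophil markers (3.35), pattern recognition (2.76), death receptors (1.77), interferon response (1.27), actin (1.11), pre-mRNA processing (0.91) and chromatin (0.60), as differences from the CTRL mean on the log2 scale. Its log2 intensities of CSF3R (13.87) and CCNL1 (11.87) were high and those of MARCO (12.33) and WDR92 (2.32) low. MEA 5 stood apart with a low mean of the secretory list (-2.30). MEA 7 was high for CD74 (14.73) and low for HAVCR1 (6.39) and BPIFB2 (4.16). Among the controls, CTRL 1 was low for MARCO (12.35), CTRL 3 was low for ADCK4 (5.63) and CTRL 7 was high for TSEN15 (4.92).

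KLRG1 was the named transcript for which the direct test of SEA against MEA passed the threshold, 1.21 higher in SEA on the log2 scale.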

How the results depend on the processing

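Among 4930 transcripts 160 rose and 322 fell (482), and 97 of the 103 named transcripts were called. With normexp background correction (offset 50) 22 rose and 98 fell (120, 41 named), without a filter on dim transcripts 103 rose, and at an adjusted p below 0.05 there were 51 rises and 159 falls (210). With all 25 arrays in 1 fit 199 fell. With the slide as a block there were 54 rises and 129 falls (183, 52 named), and with the scan session as a block 67 and 153 (220, 64 named). With the epithelial percentage as a covariate limma called 0 transcripts (0 named, 610 at an unadjusted p below 0.05). With CTRL 1 left out and the slide as a block, an alternative chosen after seeing the data, it also called 0 (0 named, 652 at an unadjusted p below 0.05). The cause was not tested. Leaving out 1 horse at a time gave 156 (without CTRL 1) to 750 calls (without MEA 7), 44 to 262 rises, 110 to 488 falls and 52 to 96 named transcripts. Of the named transcripts 1 was called between SEA and MEA, 0 with 75th percentile scaling, 0 with normexp, 3 with all 25 arrays in 1 fit, and 0 to 7 when 1 horse was left out. Among named transcripts the sign turned for CSF3R with the epithelial covariate (-0.73) and with CTRL 1 left out and the slide as a block (-0.27), and for MARCO when 1 horse was left out (-0.0705 without CTRL 1 to 0.40 without MEA 3). Under the other alternatives run, 337 (75th percentile scaling) to 508 (no minimum fold) transcripts were called. Keeping spots flagged as outliers (480) and filtering on the linear scale (379) were chosen after seeing the data. With the replicate block, as a random effect, 167 rose and 331 fell (498). Correlations of same-numbered CTRL and MEA samples ran from -0.44 to 0.37, so the numbers do not pair the horses. Faint spots limit some named transcripts, among them XG, FMO5, SERPINA1, TK2, TULP3, KLF9 and DNAJB13, which were not well above background on every array.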

Other observations

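Some transcripts outside the gene lists, chosen for mention after their values were seen, showed no overlap between MEA and CTRL horses. Their calls were not followed one by one through the removal of single horses, the slide block or the other alternatives. DNER, a transmembrane protein that binds Notch, lay between 8.02 and 8.72 in CTRL and between 5.60 and 7.20 in MEA, with a log2 fold change of -1.66 (SE 0.23, limma adjusted p = 0.00445). DUSP14, a phosphatase of kinase signalling, lay between 7.42 and 8.66 in CTRL and between 4.62 and 7.07 in MEA, and fell by 1.82 (SE 0.30, limma adjusted p = 0.00849). PRPS1, a synthetase of nucleotide precursors, fell by 1.12 (SE 0.22, limma adjusted p = 0.0181). PTPN23, a protein of endosomal sorting, lay between 7.43 and 8.00 in CTRL and between 8.09 and 9.03 in MEA, and rose by 0.82 (SE 0.16, limma adjusted p = 0.0187).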
